A study of Rattus norvegicus with 23 samples.

Results

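The mitochondrial chromosome of the rat (MT) carried 35 of the 32552 genes in the count tables, and all 35 are described here in heart and kidney after 3 kinds of surgery. They were taken by their chromosome, not by any measured value. Of these genes, 13 were protein-coding, 204 to 1830 bases long, and 22 were short genes of 60 to 75 bases, the length of transfer RNAs (tRNAs). The files gave 17 of the short genes a clone-based symbol (AY172581 with a number) and 5 no symbol, so none is named for an amino acid here. Genes of the length of ribosomal RNAs (rRNAs) are not analysed here: no listed gene covered the stretches from 68 to 1025 (958 bases) and from 1094 to 2664 (1571 bases). Coordinates are those of the count tables, whose genome build is not given in the sources used here.

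Hearts and kidneys were snap-frozen 4 weeks after the operation, and the rats, of the Sprague-Dawley breed, are labelled 13 weeks old. Sham rats had sham surgery, NX rats a 5/6th partial nephrectomy, and AVF+NX rats the same nephrectomy plus a fistula joining the jugular vein end-to-side to the carotid artery. No group had the fistula without the nephrectomy, so AVF+NX against Sham holds both operations and AVF+NX against NX the fistula in nephrectomised rats. The effect of the fistula by itself cannot be read from these groups. There were 3 heart Sham libraries and 4 in each of the other 5 groups, from poly(A)-selected RNA, and the labels number them as biological replicates without saying which heart and kidney came from 1 rat.

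The mitochondrial chromosome encodes core subunits of the respiratory chain and of ATP synthase, while every other mitochondrial protein comes from nuclear genes. Both of its strands are transcribed as long RNAs, and tRNAs that lie between the messages are cut out, which frees the messages for polyadenylation. Poly(A) selection therefore retains polyadenylated messages and little of the tRNAs. How fully each message, Mt-nd6 among them, was captured was not measured here. Complex I subunits are encoded by the Mt-nd genes, complex III cytochrome b by Mt-cyb, complex IV subunits by the Mt-co genes and ATP synthase subunits by Mt-atp6 and Mt-atp8. Heart muscle and the proximal tubule of the kidney are both rich in mitochondria.

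Heart libraries held 9.61 to 48.1 M counts (M, mega; the deepest had 48079431) and kidney libraries 9.07 to 18.8 M. Depth was uneven between the heart groups: Sham libraries had 9.89 to 11.9 M counts, the NX libraries numbered 2 and 3 had 22.7 and 18.0 M against 9.61 and 10.5 M for NX 1 and 4, and AVF+NX 1 to 3 had 27.99 to 48.1 M against 11.9 M for AVF+NX 4. Kidney NX 4 was the deepest kidney library. The share of counts on 97 small structured RNA genes (symbols that begin with RF) also separated heart libraries. It was 0.137% to 0.164% in Sham 1 to 3, NX 1 and NX 4, and 0.0720% to 0.106% in NX 2, NX 3 and AVF+NX 1 to 4. The 10 cardiomyocyte markers and the 10 proximal tubule markers were all detected in their own organ.

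Mitochondrial genes took 18.9% to 26.0% of the poly(A)-selected counts in heart libraries and 4.15% to 9.63% in kidney libraries. In heart they held 20.6%, 21.3% and 22.1% of counts in the Sham libraries, 21.4%, 18.9%, 19.5% and 21.1% in NX 1 to 4, and 22.1%, 23.2%, 22.6% and 26.0% in AVF+NX 1 to 4. The Sham and NX hearts overlapped, and each AVF+NX heart lay above each Sham heart, the nearest pair, 22.14% and 22.13%, differing by less than counting error. In kidney the share was 8.55%, 7.63%, 8.52% and 9.51% in Sham, 9.45%, 9.37%, 9.63% and 4.15% in NX, and 5.71%, 9.03%, 8.34% and 7.04% in AVF+NX. All 3 kidney groups overlapped, and NX 4 was the lowest of the 12. Exact (Clopper-Pearson) 95% intervals of these shares were at most 0.052 percentage points wide. Nearly all of these counts were on messages: the 22 short genes together held 0.265% to 0.573% of the mitochondrial counts. Mt-co1, the catalytic subunit of cytochrome c oxidase, had the most counts of any gene in each of the 23 libraries, and 6 to 8 mitochondrial genes were among the 10 leading genes of every heart library.

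**Figure D1:**
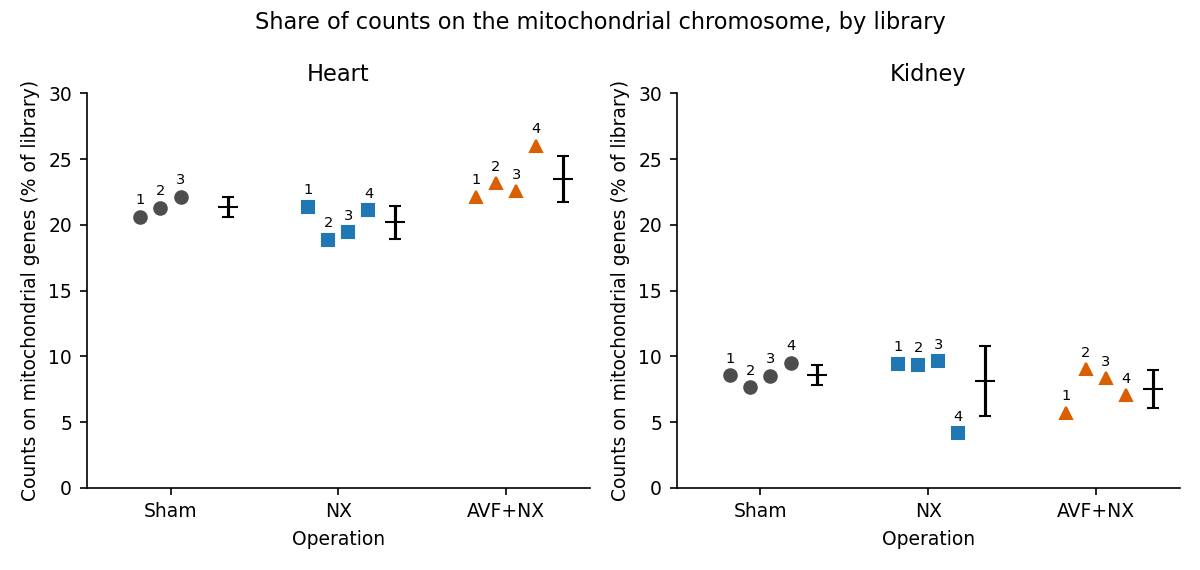
Percent of each library's counts on the 35 mitochondrial genes (y axis) by operation (x axis) in heart and kidney; points are libraries with their replicate number, and the black bar beside them is the group mean ± SD. Heart libraries lie between 18.9% and 26.0%, kidney libraries between 4.15% and 9.63%.

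Levels per length (TPM, which divides counts by gene length and scales each library to the same total) put Mt-co1 first in both sham organs. In sham heart Mt-co1 led with 76040 ± 2759 TPM (SD, n = 3), followed by Mt-co2 at 48510 ± 1197, Mt-co3 at 47330 ± 2726 and Mt-atp6 at 42670 ± 2267. The ranges of Mt-co2 and Mt-co3 overlapped, so their order was within the spread between libraries. Mt-cyb followed at 30310 ± 1434 TPM. Complex I messages came below: Mt-nd1 at 18890 ± 1823, Mt-nd2 at 18610 ± 1616, Mt-nd4l at 15540 ± 759, Mt-nd5 at 11060 ± 668 and Mt-nd6, encoded on the opposite strand, at 8715 ± 664. In sham kidney Mt-co1 again led, with 33590 ± 2808 TPM (SD, n = 4), and Mt-co3, Mt-co2 and Mt-atp6 lay at 23290 ± 3805, 22100 ± 1507 and 21820 ± 2361.

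Mt-nd4, a complex I subunit, stood far below its neighbours. It had 315 ± 34.2 TPM (SD, n = 3) in sham heart and 176 ± 33.7 (SD, n = 4) in sham kidney, against 15540 ± 759 and 9090 ± 581 for Mt-nd4l, the gene just before it, which it overlaps by 7 bases. The pair is known to be carried on 1 message. The 3 short genes right after Mt-nd4, which have no symbol, had 12, 0 and 4 counts over all 23 libraries, and the short gene between Mt-co3 and Mt-nd3 had 0. How reads that match near-identical copies elsewhere in the genome were counted is not given in the sources used here, so the values of Mt-nd4 and of these short genes are uncertain.

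**Figure D2:**
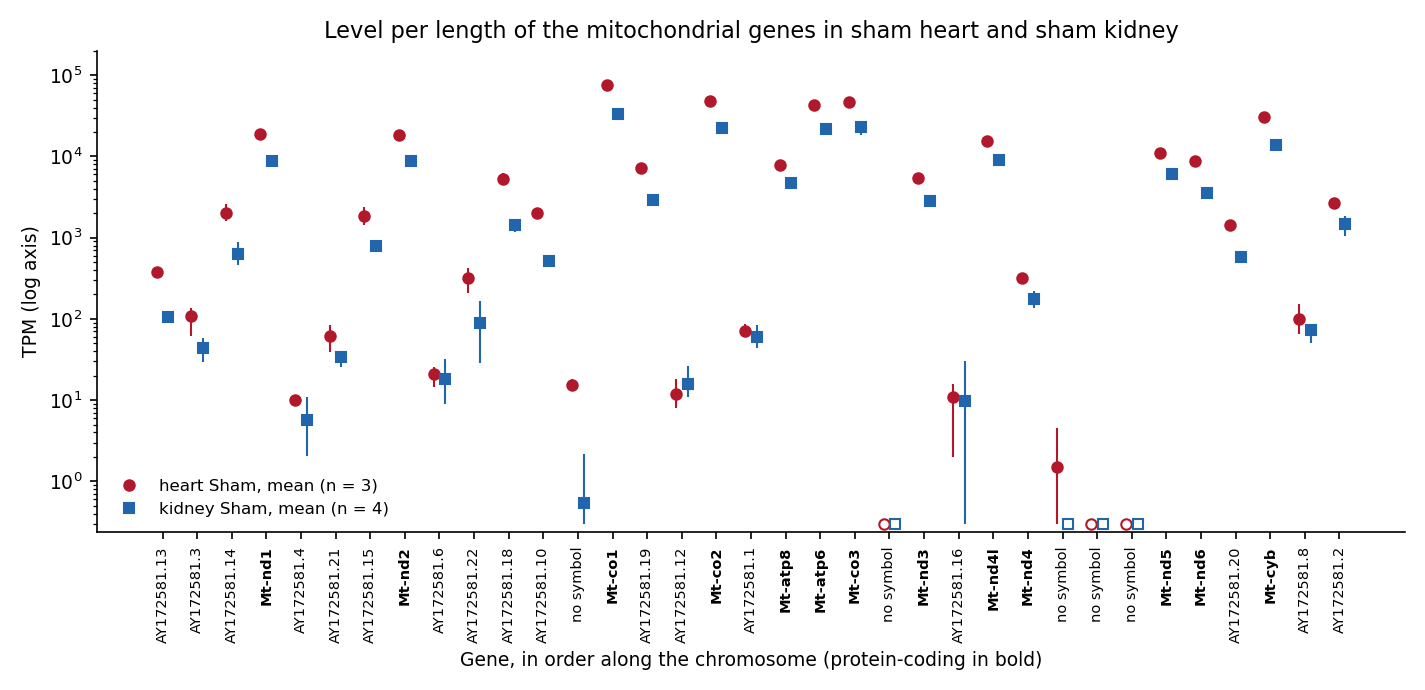
Mean TPM (y axis, log scale) of the 35 genes in chromosome order (x axis) in sham heart and sham kidney; lines run from the lowest to the highest library, cut at the axis floor, and open symbols at the floor are genes with no count. The messages lie at 2790 TPM or above except Mt-nd4, at 315 and 176.

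The 4 short genes with the highest level per length in sham heart lie on the minus strand. AY172581.19 (MT:6865-6933, minus strand), which overlaps the end of Mt-co1 by 3 bases on the other strand, had 7125 ± 367 TPM (SD, n = 3), AY172581.18 (MT:5081-5152, minus strand) had 5333 ± 852, AY172581.2 (MT:15348-15415, minus strand) had 2689 ± 234 and AY172581.10 had 2002 ± 322. The next, AY172581.14 on the plus strand, had 1994 ± 548, which overlapped AY172581.10. At the other end, AY172581.12, AY172581.16 and AY172581.4 lay at 11.8, 10.9 and 10.05 TPM. Reads longer than a tRNA that reach into a message can be counted for either gene, and the strand setting of the counting is not given in the sources used here, so a value of a short gene is not a measure of the mature tRNA.

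The comparison of sham heart with sham kidney asked how the organs differ without surgery. By edgeR's quasi-likelihood test with Benjamini-Hochberg adjustment over all 15222 genes tested, 25 of the 30 mitochondrial genes tested were higher in heart at an adjusted p below 0.05 and 0 were lower. Of all genes, 71.2% differed between the sham organs and 33.2% were higher in heart. The 13 messages were all higher in heart, by 1.603 to 2.14 on the log2 scale. The difference was largest among messages for Mt-nd6, at 2.14 ± 0.16 (SE) on the log2 scale (adjusted p = 2.36e-11, edgeR), and smallest for Mt-atp8, at 1.603 ± 0.30 (adjusted p = 7.235e-05, edgeR). Among short genes, 12 of 17 were higher, led by AY172581.10 at 2.81 ± 0.36 on the log2 scale. The size of these changes depends on the scaling between the organs (TMM factors), among which most genes differed. As a share of all counts, the mitochondrial genes had a mean of 21.35% in sham heart and 8.55% in sham kidney, a smaller ratio. In bulk tissue, more mitochondria-rich cells and more mitochondrial RNA per cell cannot be told apart.

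In heart, AVF+NX differed from Sham in 8 of the 30 mitochondrial genes tested, 5 higher and 3 lower, by edgeR with an adjusted p below 0.05. Of all 12794 genes tested, 34.1% were called in that comparison, 15.4% higher and 18.6% lower, so the share of mitochondrial genes called (26.7%) was not above that of other genes. The genes that were higher were Mt-co1, Mt-nd4l and the short genes AY172581.12, AY172581.14 and AY172581.16. The lower genes were Mt-nd6 and the short genes AY172581.10 and AY172581.19. All 5 higher genes lie on the plus strand, where 22 of the tested genes lie, and all 3 lower genes lie on the minus strand, where the other 8 lie. The 5 other minus-strand genes were not called and had log2 changes from -0.37 to 0.75. Of the 22 plus-strand genes, 7 had negative log2 changes, down to -1.76 (Mt-nd4), and 3 lay wholly below Sham, though none was called lower. The uncalled genes were thus not divided by strand. The median log2 change was 0.28 over the 30 genes and 0.01 over all genes tested.

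Mt-co1 (MT:5323-6867) had 73160, 79161 and 79389 CPM (counts scaled to library size with TMM factors) in heart Sham 1 to 3 and 96446, 106440, 100680 and 115070 in AVF+NX 1 to 4. The 4 NX hearts had 79631, 84517, 82086 and 76087. Every AVF+NX heart lay above every Sham and NX heart, and NX overlapped Sham. The change from Sham was 0.44 ± 0.09 (SE) on the log2 scale, a 1.36-fold higher level (adjusted p = 0.00445, edgeR).

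Mt-nd4l (MT:9870-10166), a small membrane subunit of complex I, had 2870, 3042 and 3191 CPM in Sham and 4517, 5183, 3818 and 5237 in AVF+NX. The NX hearts, at 3052, 3297, 4107 and 4250, reached from the Sham range into the AVF+NX range. It rose by 0.63 ± 0.14 on the log2 scale against Sham (adjusted p = 0.00554, edgeR). Mt-nd4, known to be carried on the same message, had the opposite sign, at -1.76 on the log2 scale, and was not called. Since the values of Mt-nd4 are uncertain, the call of Mt-nd4l cannot be read as a higher level of the shared message. Mt-nd6 (MT:13543-14061), the only message on the minus strand, had 2721, 3255 and 2951 CPM in Sham, 2685, 2056, 1548 and 2282 in NX and 1990, 1475, 1354 and 1759 in AVF+NX. Both operated groups lay below Sham. It fell by 0.86 on the log2 scale in AVF+NX (SE 0.17, adjusted p = 0.00388, edgeR). Its last 23 bases overlap the end of Mt-nd5 on the other strand.

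AY172581.19 had the largest log2 change in AVF+NX against Sham of the mitochondrial genes tested in heart. It had 337, 314 and 318 CPM in heart Sham and 39.5, 39.6, 37.2 and 50.4 in AVF+NX. The NX hearts were split, with 303 and 364 CPM in NX 1 and 4 and 42.0 and 50.0 in NX 2 and 3. The change in AVF+NX was -2.96 ± 0.70 (SE) on the log2 scale, 7.79-fold lower (adjusted p = 0.0125, edgeR). Over the 11 hearts its level divided with the small structured RNA share. It was 303 to 364 CPM in the 5 libraries with a share of 0.137% to 0.164% and 9.61 to 11.9 M counts. It was 37.2 to 50.4 CPM in the 6 libraries with a share of 0.0720% to 0.106% and 11.9 to 48.1 M counts. In depth the sets met: Sham 1 had 11866042 counts and 337 CPM, and AVF+NX 4 had 11889483 counts and 50.4 CPM. With a term for the log2 of the library total, the change of AY172581.19 in AVF+NX was -1.52 on the log2 scale (adjusted p = 0.491, edgeR). With a term for the small structured RNA share it was -1.24 (adjusted p = 0.231, edgeR). Both were smaller than without those terms. Sham and AVF+NX hearts did not overlap in either property, so these fits cannot tell the operation from it.

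AY172581.10 (MT:5185-5252, minus strand) had 74.2, 105 and 89.2 CPM in Sham, 96.8, 23.03, 28.5 and 36.3 in NX and 31.4, 29.0, 25.4 and 56.4 in AVF+NX. It fell by 1.35 on the log2 scale (SE 0.47, adjusted p = 0.0488, edgeR), and NX 1 alone of the NX hearts was in the Sham range. This call was lost when any of 8 of the 11 hearts was left out (each of Sham 1 to 3, NX 3 and 4 and AVF+NX 1 to 3), with log2 changes of -1.47 to -1.21 in those fits. AY172581.14 (MT:2665-2739), which ends where Mt-nd1 begins, had 77.2, 131 and 87.5 CPM in Sham, 92.9, 166, 80.7 and 47.7 in NX and 307, 204, 194 and 344 in AVF+NX. It was higher by 1.41 ± 0.39 on the log2 scale (adjusted p = 0.0204, edgeR), with the AVF+NX hearts above all others.

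The remaining pair rested on few counts. AY172581.12 (MT:6937-7004) had 5, 8 and 4 counts in Sham, 2, 12, 8 and 2 in NX and 55, 44, 65 and 50 in AVF+NX. Scaled to depth these were 0.407, 0.828 and 0.355 CPM in Sham and 1.94, 0.927, 1.43 and 4.46 in AVF+NX, and the groups did not overlap (log2 change 1.95 ± 0.60, adjusted p = 0.0234, edgeR). AY172581.16 (MT:9800-9867), just before Mt-nd4l, had 8, 7 and 1 counts in Sham, 1, 55, 28 and 3 in NX and 84, 123, 109 and 41 in AVF+NX. In CPM it lay at 0.652, 0.725 and 0.0887 in Sham and at 2.96, 2.59, 2.39 and 3.65 in AVF+NX, with NX 2 (2.38) just under the AVF+NX range and NX 3 (1.54) between the Sham and AVF+NX ranges (log2 change 2.55 ± 0.73, adjusted p = 0.0194, edgeR).

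**Figure D3:**
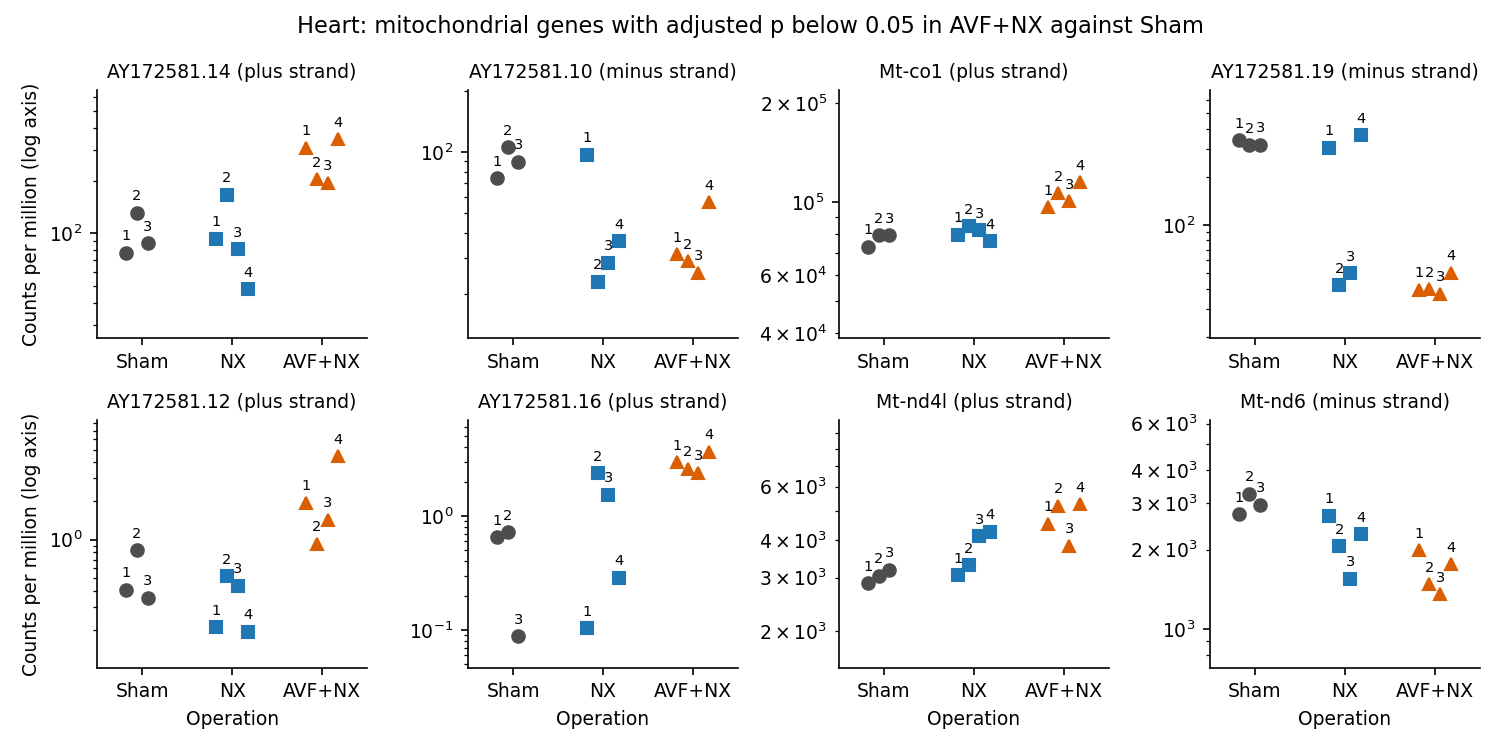
TMM-scaled CPM (y axes, log scale) in each heart library by operation for the 8 genes with an adjusted p below 0.05 in AVF+NX against Sham; numbers are replicates. The 4 AVF+NX libraries lie apart from the 3 Sham libraries in every panel, and NX 2 and 3 lie with AVF+NX for AY172581.19 (42.0 and 50.0 CPM).

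Messages that did not pass the test included some with large differences. Mt-co3, a core subunit of cytochrome c oxidase, had 22893, 24397 and 25887 CPM in Sham, 25667, 8629, 7704 and 18500 in NX and 11057, 9379, 12203 and 16344 in AVF+NX. All AVF+NX hearts lay below Sham, and the log2 change was -0.99 ± 0.37 (adjusted p = 0.061, edgeR). Mt-nd3, which follows it on the chromosome, differed by -0.79 ± 0.33 (adjusted p = 0.0877, edgeR). Mt-nd4 had 255, 283 and 319 CPM in Sham, 341, 55.2, 97.8 and 478 in NX and 67.0, 112, 51.1 and 107 in AVF+NX, the lowest log2 change of a message at -1.76 ± 0.65 (adjusted p = 0.0633, edgeR). The other messages had log2 changes from -0.26 (Mt-atp6) to 0.55 (Mt-nd2). In all, 14 of the 30 genes had AVF+NX and Sham hearts that did not overlap, 8 higher and 6 lower, beside 47.4% of all genes tested (22.8% higher and 24.6% lower).

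None of the 8 calls was kept when terms for library properties were added, and the fold changes moved unevenly. Each Sham heart had a lower total and a higher small structured RNA share than each AVF+NX heart. These fits therefore cannot tell the operation from either property, and a lost call does not decide between them. In a model that also held the log2 of each library's total, 0 of the 30 genes were called (2 of all genes), and in one that held the small structured RNA share 1 was called (454 of all genes), AY172581.2 at 0.70 on the log2 scale (adjusted p = 0.03, edgeR), which was not among the 8. With the library total in the model the log2 change was as large or larger for Mt-co1 (0.48), Mt-nd4l (0.73), AY172581.14 (1.49) and AY172581.12 (2.90), and smaller for AY172581.16 (2.23), Mt-nd6 (-0.52), AY172581.19 (-1.52) and AY172581.10 (-0.26). With the small structured RNA share it was smaller for all 8, at 0.33 for Mt-co1, 0.57 for Mt-nd4l, -0.61 for Mt-nd6, -1.24 for AY172581.19, -0.67 for AY172581.10, 0.83 for AY172581.14, 0.92 for AY172581.16 and 0.47 for AY172581.12. AVF+NX 4, with 11.9 M counts beside 9.89 to 11.9 M in Sham, had the highest Mt-co1 and AY172581.14 of the 4 AVF+NX hearts and 50.4 CPM of AY172581.19, against 314 or more in Sham. That library also had the lowest small structured RNA share of any heart, 0.0720% against 0.137% to 0.155% in Sham. Its values therefore do not separate the operation from that property. AY172581.12, AY172581.14 and AY172581.16 lost their calls without Sham 1 (adjusted p = 0.0883, 0.0747 and 0.053, edgeR) and without Sham 3 (0.0861, 0.0678 and 0.0736). Mt-co1, Mt-nd4l, Mt-nd6 and AY172581.19 passed with any 1 heart left out. Scaled to the mitochondrial protein-coding counts instead of all counts, Mt-co1 was at 0.28 on the log2 scale and no longer passed (adjusted p = 0.067, edgeR), while Mt-co3 (-1.16), Mt-nd3 (-0.97) and Mt-atp6 (-0.43) passed as lower.

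**Figure D4:**
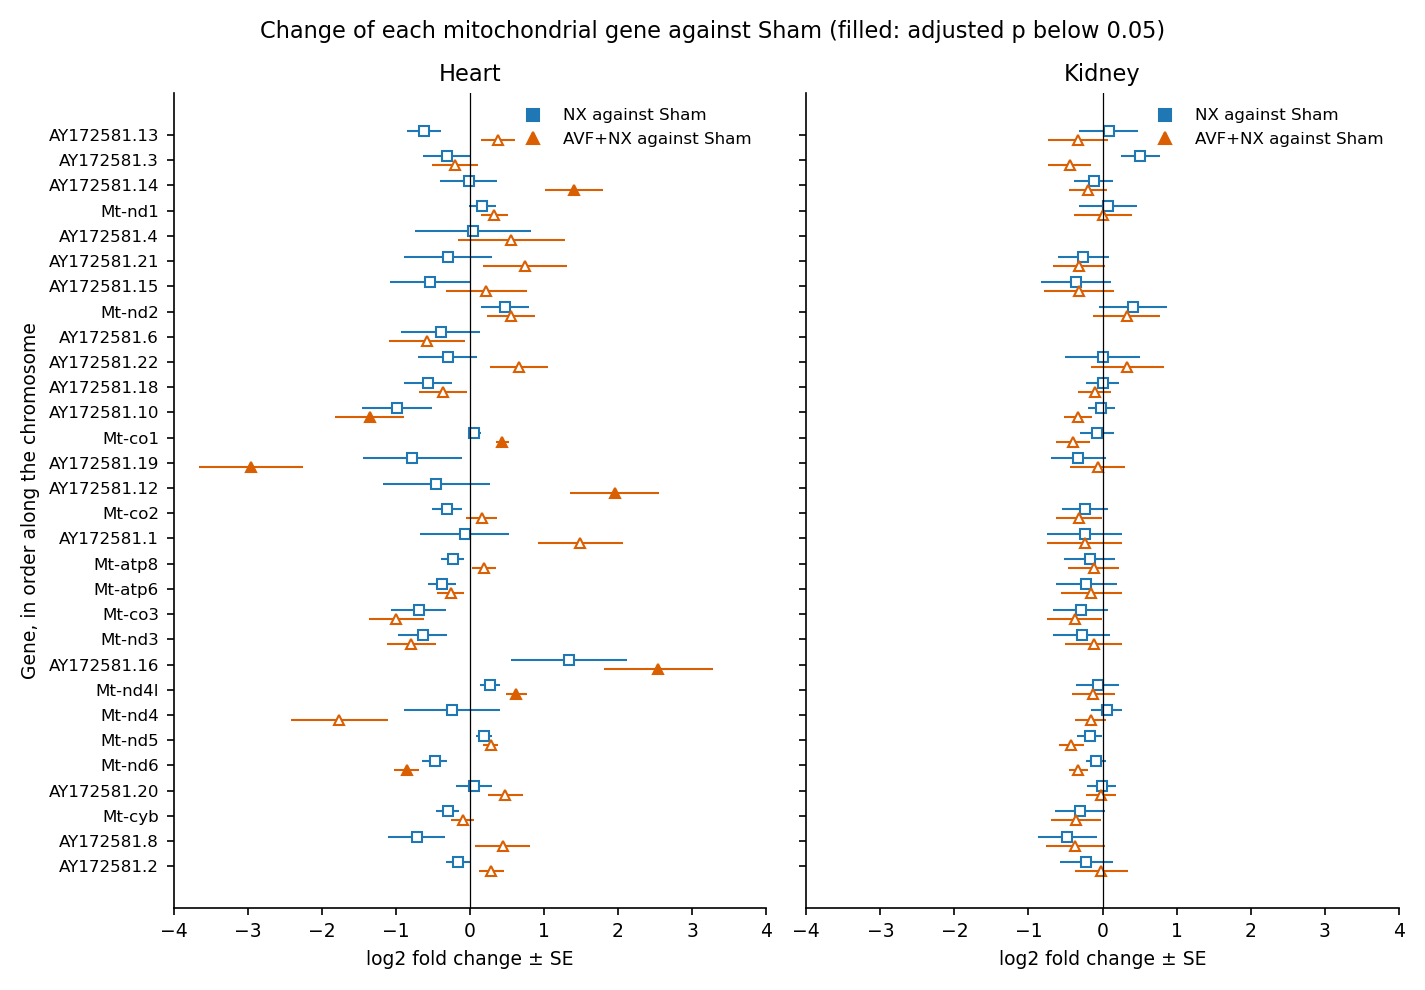
Log2 fold change ± SE (x axes) of each tested mitochondrial gene in chromosome order (y axis) for NX against Sham and AVF+NX against Sham, in heart (30 genes) and kidney (26 genes); filled symbols have an adjusted p below 0.05 by edgeR. The 8 filled symbols are all heart AVF+NX, from -2.96 to 2.55, and kidney changes stay between -0.47 and 0.51.

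In heart, nephrectomy alone gave no called mitochondrial gene: 0 of 30 passed, as did 0% of all 12794 genes tested by edgeR. At an unadjusted p below 0.05 there were 2 mitochondrial genes and 2662 genes in all. DESeq2 and limma voom also called 0 mitochondrial genes, and 349 and 1 of all genes. Mt-nd2, a complex I subunit, had the highest log2 change of a message, 0.47 ± 0.32, from 11288, 13577 and 13283 CPM in Sham and 12684, 9881, 23070 and 24746 in NX. Mt-co3 had the lowest, -0.69 ± 0.37 (adjusted p = 0.304, edgeR). Both show NX hearts divided into pairs, but not the same pairs: NX 3 and 4 were high in Mt-nd2, while NX 2 and 3 were low in Mt-co3. The groups did not overlap for 3 messages (Mt-atp8, Mt-nd3 and Mt-nd6, all lower in NX), beside 15.9% of all genes (8.94% lower).

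Adding the fistula to the nephrectomy gave 0 called genes of 30 in heart, beside 0.336% of all genes, by edgeR. At an unadjusted p below 0.05 there were 15 of the 30 mitochondrial genes and 2752 of all 12794 genes. The smallest adjusted p was 0.0601, for AY172581.13 (MT:1-67), which had 16.04, 12.1, 7.80 and 7.41 CPM in NX and 25.2, 18.5, 22.5 and 19.6 in AVF+NX. Mt-co1 was at 0.38 ± 0.08 on the log2 scale (adjusted p = 0.0618, edgeR). Among messages Mt-co2, which carries the copper site that receives electrons from cytochrome c, had the highest log2 change, 0.47 ± 0.19, from 20333, 21962, 13427 and 14718 CPM in NX and 24354, 16307, 25171 and 31601 in AVF+NX, which overlapped. The lowest was Mt-nd4 at -1.52 (values above). AVF+NX lay wholly above NX for 6 genes (Mt-co1 and the short genes AY172581.8, AY172581.12, AY172581.13, AY172581.14 and AY172581.16) and below it for 0, beside 10.1% of all genes that did not overlap (4.96% higher). DESeq2 called 7 of the 30 and 843 of all genes, and limma voom 2 of the 30 and 68 of all genes.

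How the protein-coding counts were divided among the 13 messages differed between libraries in a pair of ways, one of which crossed the organs by replicate number. Mt-co2 held 6.92% to 6.99% of the protein-coding mitochondrial counts in hearts AVF+NX 2, NX 3 and NX 4, and 9.56% to 11.9% in the other 8 hearts. In kidney the libraries with the same labels, AVF+NX 2, NX 3 and NX 4, held 6.59% to 7.44%, and the other 9 held 9.25% to 10.99%. In those same libraries Mt-nd2 was high. It held 11.6% to 12.01% in the 3 hearts and 5.37% to 6.95% in the others, and 7.20% to 14.4% in the 3 kidneys against 5.35% to 6.95% in the others. The ratio of Mt-nd2 to Mt-co2 counts was 1.66, 1.72 and 1.68 in hearts AVF+NX 2, NX 3 and NX 4 and 0.450 to 0.624 in the rest. In kidney it was 2.04, 2.05 and 0.968 in the same order and 0.5255 to 0.730 in the rest. No Sham library of either organ was in the set, and these libraries belong to both operated groups. They were picked out after their values were seen, so the ranges are a description with no test. The labels do not tie a heart to a kidney, and whether same-numbered libraries share a rat was not tested by these ratios.

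The other division separated hearts only in part by operation. Mt-co3 held 4.01% to 5.95% of the protein-coding mitochondrial counts in the 4 AVF+NX hearts, 4.69% and 4.01% in NX 2 and 3, 12.1% and 8.70% in NX 1 and 4, and 11.2% to 11.8% in Sham. Mt-co1 was high where Mt-co3 was low. It held 41.9% to 45.7% in AVF+NX, 45.9% and 42.7% in NX 2 and 3, 37.4% and 35.8% in NX 1 and 4 and 36.1% to 36.9% in Sham. The ratio of Mt-co1 to Mt-co3 counts was 3.07 to 3.25 in Sham, 3.10 and 4.11 in NX 1 and 4, 9.79 and 10.7 in NX 2 and 3, and 7.04 to 11.4 in AVF+NX. In kidney it was 2.65 to 3.22 in Sham and 2.41 to 4.17 in all operated libraries but NX 4, which stood at 7.67. Among hearts, the libraries with the high ratio were those with the low small structured RNA share (0.0720% to 0.106%). Kidney NX 4 had a share of 0.446%, toward the upper end of the kidney range (0.321% to 0.470%). The high-ratio libraries were also the deepest in each organ, but narrowly so for heart AVF+NX 4. It had 11889483 counts and a ratio of 7.04, and Sham 1 had 11866042 counts and a ratio of 3.20. The part of depth and of RNA content in this ratio was not tested.

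**Figure D5:**
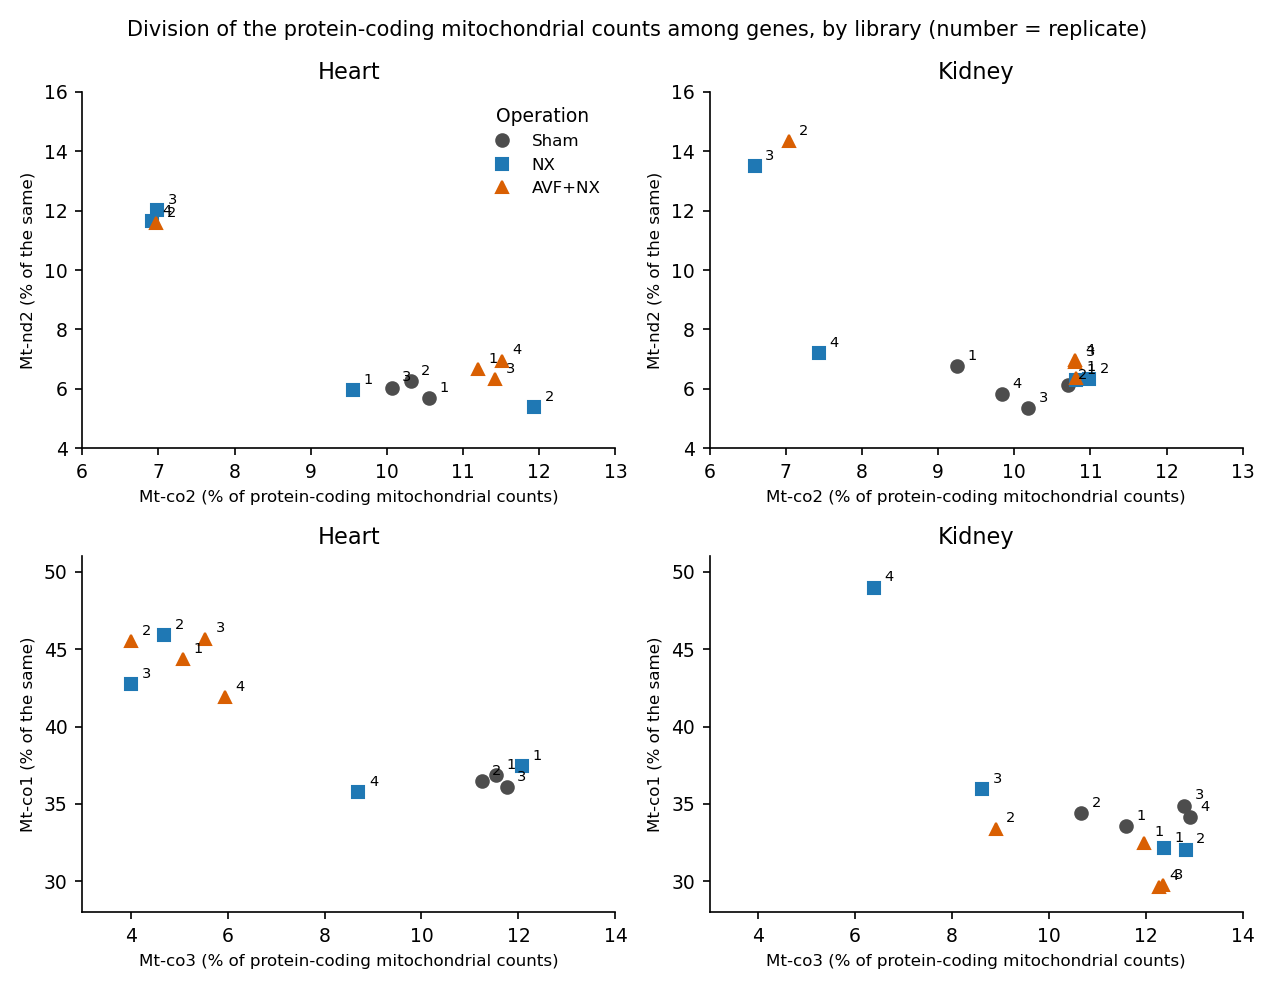
Percent of the protein-coding mitochondrial counts on Mt-nd2 against Mt-co2 (top) and on Mt-co1 against Mt-co3 (bottom), both axes in percent, per library of heart (left) and kidney (right); symbols give the operation and numbers the replicate. AVF+NX 2, NX 3 and NX 4 lie at an Mt-co2 share of 6.59% to 7.44% in both organs, and the AVF+NX hearts lie with NX 2 and 3 at an Mt-co3 share of 4.01% to 5.95%.

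In kidney, 26 mitochondrial genes were tested and 0 were called in each of the 3 comparisons by edgeR. Of all 14322 genes tested, 1.31% were called in NX against Sham, 25.1% in AVF+NX against Sham and 6.07% in AVF+NX against NX. At an unadjusted p below 0.05 there were 0, 2 and 1 of the 26 mitochondrial genes in those comparisons, beside 2488, 5386 and 3295 of all genes. DESeq2 called 0, 2 and 0 of the 26, beside 821, 4205 and 1487 of all genes, and limma voom called 0 in each, beside 46, 3444 and 880. Mt-nd5, which forms part of the proton channel of complex I, had the lowest log2 change of a message in AVF+NX against Sham. It had 6368, 6287, 6371 and 7047 CPM in Sham, 6143, 6406, 6431 and 4173 in NX and 3708, 5330, 5659 and 4790 in AVF+NX. The AVF+NX kidneys all lay below Sham, the only gene of the 26 whose groups did not overlap there (27.6% of all genes did not, 11.2% in the same direction), and the log2 change was -0.42 ± 0.17 (adjusted p = 0.0908, edgeR). Without NX 4, which enters the shared estimate of spread, its adjusted p was 0.0397 (log2 change -0.42, edgeR). No gene of the 26 had NX and Sham kidneys that did not overlap, beside 9.38% of all genes.

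Mt-co1 in kidney had 28829, 27165, 30823 and 34330 CPM in Sham, 29527, 30406, 36509 and 18822 in NX and 17242, 29537, 24917 and 20201 in AVF+NX. The groups overlapped in each comparison, and the log2 change was -0.40 ± 0.23 in AVF+NX against Sham and -0.33 ± 0.23 against NX, the lowest of a message there. Mt-nd2 had the highest log2 change of a message in both comparisons with Sham, 0.41 ± 0.45 in NX and 0.32 ± 0.45 in AVF+NX. It had 5805, 4845, 4728 and 5847 CPM in Sham, 5769, 5987, 13716 and 2768 in NX, and 3379, 12690, 5764 and 4736 in AVF+NX, and NX 3 and AVF+NX 2 alone lay above 5987. Mt-cyb was lowest in NX against Sham at -0.31 ± 0.34, with 9284, 8099, 9119 and 10780 CPM in Sham and 9683, 10050, 7993 and 2404 in NX, where NX 4 lay far below the others. Mt-nd3 was highest in AVF+NX against NX at 0.16 ± 0.39, with 604, 659, 487 and 119 CPM in NX and 392, 436, 666 and 595 in AVF+NX, where NX 4 was again lowest. In the last comparison the short gene AY172581.3 (MT:1026-1093) did not overlap between groups, with 2.78, 2.26, 1.92 and 2.92 CPM in NX and 1.53, 1.03, 1.11 and 1.43 in AVF+NX (log2 change -0.96 ± 0.28, adjusted p = 0.0605, edgeR), beside 11.8% of all genes whose groups did not overlap (4.31% lower).

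Summed marker RNA of several cell types differed between the kidney groups, and in bulk tissue the number of cells and the RNA per cell cannot be told apart. The summed level of the 10 proximal tubule markers was 20780 to 25460 CPM in Sham and 11820 to 17740 in AVF+NX, with 7 of 10 lower by edgeR. The 8 macrophage markers, all 8 higher, summed to 290 to 364 CPM in Sham and 1025 to 2261 in AVF+NX, and the 7 detected lymphocyte and plasma cell markers, all 7 higher, to 3.93 to 6.20 and 194 to 361. Of 7 fibroblast markers 6 were higher, and of 7 thick ascending limb and distal markers 3 were lower. Of 5 endothelial markers 1 was higher and 2 were lower. Among all genes tested 25.1% were called in this comparison. In heart the 10 cardiomyocyte markers summed to 67660 to 80470 CPM in Sham and 64660 to 73550 in AVF+NX (1 higher and 4 lower), and 5 of 7 fibroblast markers were higher. There, 4 of 5 endothelial markers were higher, and of 8 macrophage markers 3 were higher and 1 lower, beside 34.1% of all genes called. The part of these markers' cell types in the mitochondrial values was not tested.

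The difference between organs in the response to an operation was tested as an interaction in a fit of all 23 libraries. For AVF+NX against Sham, 4 of 30 mitochondrial genes were called by edgeR, beside 27.9% of all 15222 genes tested, so the mitochondrial share was not above that of other genes. The change in heart minus the change in kidney was 0.93 ± 0.26 (SE) on the log2 scale for Mt-co1 (adjusted p = 0.0121, edgeR), 0.79 ± 0.21 for Mt-nd5 (adjusted p = 0.00947), 1.70 ± 0.49 for AY172581.14 (adjusted p = 0.0145) and -2.81 ± 0.77 for AY172581.19 (adjusted p = 0.012). With same-numbered heart and kidney libraries as a replicate block the call of AY172581.19 was lost (-2.79, adjusted p = 0.0818, edgeR). Sham and AVF+NX hearts did not overlap in depth or small structured RNA share, and no interaction fit held a term for either. The heart side of these calls therefore cannot be told from those properties. For Mt-co1 and Mt-nd5 the organs' own values had opposite signs, 0.44 and 0.28 in heart and -0.40 and -0.42 in kidney, of which the heart change of Mt-co1 alone passed its test. AY172581.19 in kidney had 112, 119, 116 and 128 CPM in Sham and 66.3, 146, 146 and 95.9 in AVF+NX. For NX against Sham and for AVF+NX against NX 0 of 30 were called, beside 0.158% and 1.12% of all genes. At an unadjusted p below 0.05 there were 0 and 5 of the 30, beside 2523 and 2654 of all 15222 genes.

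The authors' deposited table for heart AVF+NX against Sham called 17 of 30 mitochondrial genes, 11 higher and 6 lower, beside 40.4% of the genes it lists. Besides the 8 above, it called Mt-co3, Mt-nd3 and Mt-nd4 lower and Mt-nd1, Mt-nd5 and 4 short genes (AY172581.1, AY172581.2, AY172581.13 and AY172581.22) higher. For heart AVF+NX against NX the authors' deposited table called 5 of 30, all higher (Mt-co1 and the short genes AY172581.8, AY172581.12, AY172581.13 and AY172581.14), beside 3.4% of its genes. For kidney AVF+NX against Sham the authors' deposited table called Mt-nd5 and Mt-co1 lower, 2 of 26 beside 31.1% of its genes. In the remaining 3 of the authors' deposited tables no mitochondrial gene was called, beside 0.726% (heart NX against Sham), 5.85% (kidney NX against Sham) and 7.86% (kidney AVF+NX against NX) of their genes.

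Nuclear genes that make, process and use mitochondrial RNA were followed as lists in the same fits. In heart NX against Sham and in heart AVF+NX against NX, 0 genes of the 6 lists were called. Of all genes tested, 0% and 0.336% were called there. In heart AVF+NX against Sham, where 34.1% of all genes were called, the list of mitochondrial transcription machinery had 5 of 10 called, 3 higher and 2 lower (median log2 change 0.18). The termination factor family members Mterf1 (0.49 ± 0.13), Mterf3 (0.59 ± 0.18) and Mterf4 (0.41 ± 0.13) rose, and Mrpl12, a ribosomal protein that also binds the mitochondrial RNA polymerase, fell by 0.29 (SE 0.09) on the log2 scale. The other called gene, Polrmt, that polymerase itself, fell by 0.44 (SE 0.15).

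The list of mitochondrial RNA processing, polyadenylation and decay had 11 of 20 called in heart AVF+NX against Sham, 8 higher and 3 lower (median 0.26). For this list and those below, 34.1% of all genes tested were called in the same comparison, 15.4% higher and 18.6% lower. Fastkd2 (0.62 ± 0.14), which binds mitochondrial rRNA, and Pnpt1 (0.47 ± 0.10), the exonuclease of the mitochondrial degradosome, rose. Fastk (-0.60 ± 0.13), which acts on the Mt-nd6 message, and Hsd17b10 (-0.55 ± 0.11), a subunit of mitochondrial RNase P, fell. Of 13 measured genes of mitochondrial DNA maintenance 2 rose and 4 fell, with Tk2 (-0.82 ± 0.13), the mitochondrial thymidine kinase, Rrm2b (-0.52 ± 0.13), Ssbp1 (-0.59 ± 0.15) and Primpol (1.76 ± 0.45) first by p. Of 13 regulators of biogenesis 1 rose and 5 fell, among them the estrogen-related receptors Esrra (-1.96 ± 0.40) and Esrrb (-0.84 ± 0.17), the coactivator Ppargc1b (-0.49 ± 0.10) and Yy1 (-0.40 ± 0.10). The 1 that rose was Ppargc1a, by 0.38 ± 0.11.

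The 71 mitochondrial ribosomal protein genes had 6 higher and 25 lower in heart AVF+NX against Sham, beside 15.4% higher and 18.6% lower of all genes tested, with a median log2 change of -0.12 against 0.01 for all genes. Mrps34 (-0.95 ± 0.14), Mrpl2 (-0.84 ± 0.13), Mrps16 (-0.82 ± 0.14) and Mrps25 (-1.004 ± 0.18) had the smallest p. Of 19 mitochondrial aminoacyl-tRNA synthetase genes and their partners, which charge mitochondrial tRNAs, 3 rose and 4 fell, with Vars2 (-0.73 ± 0.14), Sars2 (-0.46 ± 0.11) and Aars2 (-0.40 ± 0.11) down and Gatc (0.44 ± 0.12) up. The calls of these lists share the uneven depth of the heart libraries.

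In kidney, 0 genes of these lists were called in NX against Sham, beside 1.31% of all genes tested. In AVF+NX against Sham, where 25.1% of all genes were called, Polrmt (-0.42 ± 0.09) and Tfb2m (-0.41 ± 0.14), the polymerase and the factor that opens its promoters, fell, 2 of 10 in their list. Of the RNA processing list Rexo2 rose (0.42 ± 0.10) and Lrpprc, which stabilises mitochondrial messages, fell (-0.28 ± 0.09), 2 of 20. Of the DNA maintenance list the helicase Twnk (-0.39 ± 0.12) and Rrm2b (-0.40 ± 0.10) fell and Primpol rose (1.16 ± 0.36), 3 of 13. Ppara (-0.74 ± 0.18), a regulator of fatty acid oxidation genes, was the 1 of 13 regulators called. Of the synthetase list 5 of 19 fell, led by Iars2 (-0.32 ± 0.08), and of the 71 ribosomal protein genes 1 fell (Mrpl44, -0.30 ± 0.09). In AVF+NX against NX, beside 6.07% of all genes, Polrmt (-0.36 ± 0.09), Lrpprc (-0.35 ± 0.09), Twnk (-0.44 ± 0.12), Esrrg (-0.36 ± 0.09) and Ppargc1a (-0.26 ± 0.07) fell.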

How the data were processed

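The authors deposited raw counts of reads for each gene, beside its chromosome, position, strand and length, per the file headers. The submitters' processing notes name Trimmomatic 0.36, STAR 2.5.2b, featureCounts and Subread 1.5.2. The authors also deposited, per comparison, tables of log2 fold changes and p-values with a normalised signal per library, which the files show to be counts divided by 1 factor per library. No source used here gives the genome build, annotation release, strand setting or the authors' test.

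Members were all genes with chromosome MT. Members and gene lists were chosen with earlier results of these data known. The 11 heart libraries, the 12 kidney libraries and all 23 together were each fitted with edgeR 4.0.16 (R 4.3.3): filterByExpr, TMM scaling and the robust quasi-likelihood test, with 1 coefficient per group. The p-values were Benjamini-Hochberg adjusted over all genes tested, and a gene is called at an adjusted p below 0.05. CPM values are TMM-scaled, and TPM values were computed from counts and lengths. The fits were tested on simulated data. The naming rule covered all messages and the short genes tested; both rRNA genes it also lists are not analysed here. Values per library are given for called members and for the messages with the highest and lowest log2 change of a comparison. From each list, up to 4 called genes with the smallest p are named, and others named (Polrmt and Ppargc1a in heart) were chosen after their values were seen. Alternatives changed scaling, filter, tool (DESeq2 1.42.0, limma 3.58.1), samples, covariates and the replicate block. Replicates differed by more than sampling noise. Depth was 9069354 to 48079431 counts per library, and intervals cover counting error only. The labels call replicates biological without naming animals, and p-values measure the spread between these libraries.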

Additional observations from a re-analysis of the deposited data

Results flagged for a closer look

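In groups of 4, the highest or lowest library was set against the others by Dixon's criterion, for the share of counts on the mitochondrial chromosome, the share on its short genes and the share of each message among the protein-coding mitochondrial counts. Chance flags about 1 in 20 groups, and 13 of 75 were flagged. The message shares of a library divide the same total, so flags of that library are linked. The number flagged therefore cannot be weighed against that rate. The share of all counts on the chromosome was 4.155% in kidney NX 4 against 9.367% to 9.631% in the other NX kidneys. In the same library Mt-nd5 held 10.86% of the protein-coding mitochondrial counts (6.334% to 6.753% in the others) and Mt-nd6 2.292% (1.044% to 1.138%).

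Mt-nd2 held 11.57% in heart AVF+NX 2 (6.32% to 6.948% in the other AVF+NX hearts), 14.35% in kidney AVF+NX 2 (6.371% to 6.954%) and 13.51% in kidney NX 3 (6.285% to 7.201%). Mt-co2 held 6.973% in heart AVF+NX 2 (11.2% to 11.51% in the others) and 7.038% in kidney AVF+NX 2 (10.8% to 10.81%). In kidney AVF+NX 2, Mt-nd1 was also high at 8.516% (5.922% to 6.138%), Mt-co3 low at 8.907% (11.96% to 12.35%) and Mt-nd6 low at 0.9994% (1.234% to 1.266%). Mt-nd6 was high in heart AVF+NX 1 at 0.9149% (0.6145% to 0.6407%) and in kidney Sham 2 at 1.433% (1.146% to 1.189%).

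Between organs, the response to AVF+NX against Sham differed by the interaction test (edgeR, adjusted over all genes) for Mt-co1, by 0.9256 on the log2 scale in heart minus kidney, for Mt-nd5, by 0.7872, for AY172581.14, by 1.695, and for AY172581.19, by -2.809. The Sham and AVF+NX hearts also differed in depth and small structured RNA share, for which this test held no term.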

How the results depend on the processing

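For heart AVF+NX against Sham the 8 calls became 0 with log2 total count and 1 with the small structured RNA share as a covariate, 14 with only the compared groups in the fit, 13 without heart NX 2 and 3 and 14 without NX 1 and 4 (both left out after seeing the data). They numbered 7 to 12 under the other settings and 4 to 11 when 1 library was left out (4 without Sham 3, 5 without Sham 1). For heart AVF+NX against NX the 0 calls became 2 without a count filter, 4 scaled to mitochondrial protein-coding counts, 7 with DESeq2, 2 with limma voom, 2 with the small structured RNA covariate, 11 without NX 2 and 3 and 1 without NX 1 and 4, and 0 to 7 with 1 library out (7 without NX 2, 3 without NX 3). Heart NX against Sham had 12 without NX 1 and 4 and 0 to 2 with 1 library out (2 without NX 1). Kidney AVF+NX against Sham had 2 with DESeq2, 3 with log2 total count and 1 (Mt-nd2, higher) with the small structured RNA covariate, and 0 to 1 with 1 library out (1 without NX 4 or without AVF+NX 3). Kidney AVF+NX against NX had 1 without AVF+NX 2, NX 3 and NX 4, a set left out after seeing the data. The organ difference had 0 to 1 calls for NX against Sham (1 without heart NX 1), 4 to 5 for AVF+NX against Sham and 0 to 2 for AVF+NX against NX (2 without heart NX 2 or kidney NX 4, 1 without heart NX 3) with 1 library out. These numbers count mitochondrial genes alone and are not set beside the calls among all genes in the same fits. A change in them therefore cannot be read as particular to mitochondrial genes. The cause was not tested beyond the samples and terms each fit changed.

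Same-numbered libraries of an organ did not deviate together in every pair (r from -0.12 to 0.38). Over the nuclear genes, same-numbered heart and kidney libraries had r from -0.03 to 0.28, over 0.1 in all 4 AVF+NX pairs. Differently numbered heart and kidney libraries of the same operation had r from -0.18 to 0.08. Whether same-numbered libraries share a rat is not known. The labels name no pairs, so the main fits, also those across organs, treated the libraries as independent. With the replicate block, kidney AVF+NX against Sham had 1 call (Mt-nd6, -0.34) and heart AVF+NX against Sham 8 (AY172581.10 and AY172581.12 lost theirs), and with same-numbered heart and kidney libraries as a replicate block the organ difference for AVF+NX against NX had 1 and that for AVF+NX against Sham 4, where AY172581.19 lost its call (-2.79) and another gene gained one. No called value changed sign under any setting. Genes at a few counts per library, such as AY172581.12 and AY172581.16, are limited by depth.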
